A study of Mus musculus with 14 samples.

Results

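The genes described here are 10 C-type lectin receptors of the cells that line, or lie in, the lymph node sinuses: Mrc1, Mrc2, Cd209a, Cd209b, Cd209f, Cd209g, Clec4g, Clec1a, Clec1b and Clec14a. They were taken by name from the gene column of the scanner files, where they make up 10 of 34797 named genes, and each is represented by the brightest of its probes. The samples were lymph node cells of C57Bl/6 mice, labelled as lymphatic endothelial, with no genotype or treatment difference between the groups and no age given. Of the 14 arrays, 2 held medullary sinus cells and 2 subcapsular sinus cells sorted by fluorescence (FACS), and 5 held medullary and 5 subcapsular sinus cells cut by laser-capture microdissection (LCM). Each FACS sample held 1200 cells from enzymatically digested nodes of many body sites, stained with a lineage cocktail (against CD11b, CD3e, Ly-6C, Ly-6G, CD45R/B220 and erythroid cells), anti-podoplanin, anti-CD73 and the dead-cell dye 7-AAD. Which of these antibodies selected cells and which excluded them, and what CD73 gate marked each sinus, is not given in the sources used here, so the FACS groups are named by their labels alone. Each LCM sample held 50 cells cut as CD31-labelled from frozen inguinal, axillary and brachial node sections that were also stained for the macrophage surface protein that Adgre1 encodes. The labels call the samples biological replicates, numbered 1 to 5 in LCM and 6 and 7 in FACS, but tie none of them to an animal or a pool of animals, so the p-values measure the spread between these samples, which may be partly technical.

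C-type lectin receptors are membrane proteins whose carbohydrate-recognition or C-type lectin-like domain binds sugars or proteins, and many take up what they bind. The subcapsular sinus receives the lymph that enters a node, and the medullary sinus collects the lymph that leaves it. In both, endothelial cells and macrophages lie side by side, and lectin receptors on either can capture glycoproteins, polysaccharides, microbes and passing cells.

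The probe sequences are shown because the values below are those of single 60-base probes, and because separate probes of Clec1b and of Clec14a gave different sinus differences. Each line gives the first 30 bases, in lower case and 5′ to 3′, as the scanner files hold them.
Mrc1 (chr2:14253273-14253332, + strand): ctttttcagcagtcctgattcatgtcagtt
Cd209b (chr8:3921355-3921414, - strand): aactggaatgacgccgtcacagcttgcaaa
Cd209g (chr8:4137318-4137377, + strand): agaagataaatggaatgacagccgttgtac
Clec4g (chr8:3716182-3716241, - strand): tgtcagtctcaaaatcactgctctaaaccc
Clec1b, brightest probe (chr6:129350113-129350172, + strand): ttagttctgctgatctcatccatggggctg
Clec1b, second probe (chr6:129355286-129355345, + strand): ggatgtcagataagtgcttgatcatgcaat
Clec1b, the third probe (chr6:129353604-129353663, + strand): cattccgttggattggattatcacgccaga
Clec14a, brightest probe (chr12:59368573-59368632, - strand): tcgttttggtcgtcttgaccattacagtgc
Clec14a, second probe (chr12:59366597-59366656, - strand): tcatcttctccactgtatgttctctcagtt
Positions are on mm9, the build of the scanner files, and no annotation of that build was used, so exon or UTR is not given. Cd209a, Cd209b, Cd209f, Cd209g and Clec4g lie on chromosome 8, and Clec1a and Clec1b on chromosome 6. The Cd209 genes are close relatives, yet the longest run of bases that any pair of their probes shared was 9, between the probes of Cd209b and Cd209g. The 10 genes had 16 probes, and 4 genes had more than 1.

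Values are log2 signals over the 75th percentile of the array, so that 0 is the signal of a probe at that percentile, and they compare arrays for a given gene but not genes with each other. A probe counted as measured on an array where the scanner software called it well above background. This held on all 14 arrays for 3 of the 10 genes, Mrc1, Clec1b and Clec14a. The other 7 were above background on only some arrays, Mrc2 on as few as 5. Over all probes, the share above background was 69.0% and 79.0% on the medullary FACS arrays, 66.3% and 77.8% on the subcapsular FACS arrays, 67.3% to 75.3% on the medullary LCM arrays and 50.8% to 69.0% on the subcapsular LCM arrays. The arrays lay on 2 slides: slide 1 held replicates 1 to 3 of medullary LCM and every subcapsular LCM array, and slide 2 held replicates 4 and 5 of medullary LCM with every FACS array. In FACS the medullary arrays lay in row 2 of the slide and the subcapsular arrays in row 1, so sinus and row cannot be told apart there. On slide 1 they can hardly be told apart in LCM either. There medullary replicates 1 to 3 lay in row 2 with subcapsular replicate 5, and the other subcapsular arrays in row 1.

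The labelled cell type was checked against marker lists. Of 11 matched lymphatic endothelial markers, Lyve1, Mmrn1, Cdh5 and Ackr4 were above background on neither medullary FACS array, Flt4 was above background on neither subcapsular FACS array, and Prox1, the transcription factor of lymphatic identity, was above background on every array. The summed signal of these 11 genes was 2.64 and 2.81 times the 75th percentile on the medullary FACS arrays and 18.8 and 41.1 times on the subcapsular FACS arrays. In LCM it was 19.0 to 45.8 times in medullary and 14.2 to 116 times in subcapsular samples. Pecam1, the gene of CD31, which other endothelium and leukocytes also use, made up 2.67% and 3.46% of the sum in medullary FACS, 83.7% and 94.1% in subcapsular FACS, 84.0% to 95.4% in medullary LCM and 15.3% to 97.9% in subcapsular LCM samples. Such shares, here and below, weigh each gene by the brightness of its probe and do not measure the make-up of the cells. Pecam1 averaged −3.60 in medullary FACS, 4.62 in subcapsular FACS, 4.82 in medullary LCM and 4.18 in subcapsular LCM samples on the log2 scale. Without Pecam1, an alternative chosen after the values were seen, the sum was 2.57 and 2.71 in medullary FACS, 2.45 and 3.07 in subcapsular FACS, 2.09 to 4.73 in medullary LCM and 2.47 to 18.7 in subcapsular LCM samples. The members did not move together in FACS, where none was called. Of the 9 tested, 5 had positive medullary minus subcapsular differences, among them Pdpn (4.33), Prox1 (1.94) and Reln (1.88). The 4 with negative differences were Pecam1 (−8.22), Ackr4 (−6.93), Mmrn1 (−4.09) and Cdh5 (−3.17). Macrophage markers differed widely among themselves. Their summed signal over 15 genes was 582 and 615 in medullary FACS, 377 and 379 in subcapsular FACS, 383 to 546 in medullary LCM and 633 to 2400 in subcapsular LCM, in the same unit. Itgam and Marco, a scavenger receptor gene, made up 95.3% and 97.2% of the sum in medullary FACS and 89.1% and 90.3% in subcapsular FACS. Without that pair, again chosen after the values were seen, the sum was 16.2 and 29.1 in medullary FACS, 36.7 and 41.1 in subcapsular FACS, 29.7 to 63.6 in medullary LCM and 139 to 702 in subcapsular LCM samples, and the order of the FACS groups turned. In FACS 9 of 14 tested members had negative medullary minus subcapsular differences, with a median of −0.24, beside 0.74 for all genes, and none called. Among the macrophage markers, Vsig4 was above background on no subcapsular LCM array, and each of the 15 was above background on at least 1 array of every other group. Itgam, the gene of CD11b, itself an antigen of the lineage cocktail, averaged 8.96 in medullary FACS, 8.05 in subcapsular FACS, 8.39 in medullary LCM and 8.78 in subcapsular LCM samples on the log2 scale.

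**Figure D1:**
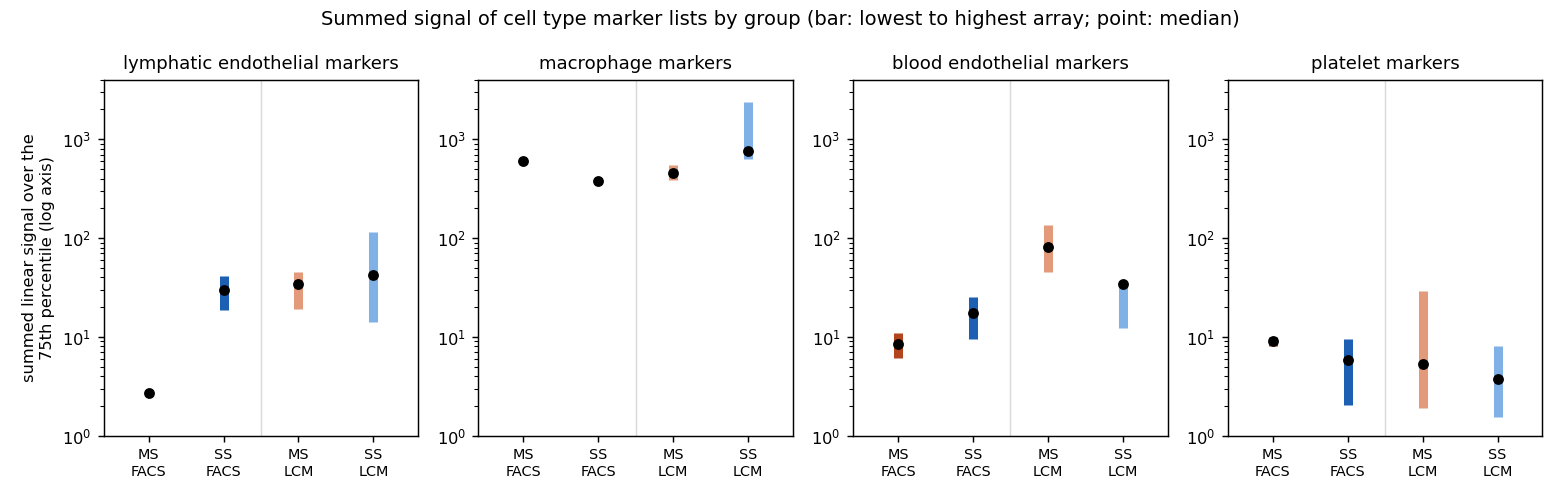
Summed linear signal of 4 marker lists over the 75th percentile of the array (vertical log axis), by sinus and isolation (MS, medullary; SS, subcapsular), with bars from the lowest to the highest array and a point at the median. The lymphatic list with Pecam1 was lowest in medullary FACS (2.64 and 2.81, and 2.57 and 2.71 without Pecam1, within the range of medullary LCM), the macrophage list highest in subcapsular LCM (633 to 2400), and the blood endothelial list highest in medullary LCM (44.9 to 135).

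Between the sinuses no lectin gene was called at a limma adjusted p under 0.05, in either isolation. In FACS, 0 of 9 genes tested were called, beside 0.0% of all 27657 genes tested, and 2 had an unadjusted limma p under 0.05 (Mrc1 and Mrc2), beside 31.9% of all genes. The lowest limma adjusted p of any gene in FACS was 0.0645, so the absence of calls there does not show that the sinuses were alike. The medullary and subcapsular FACS arrays did not overlap for 5 of the 9, Mrc1 (lower) and Mrc2, Cd209a, Clec4g and Clec14a (higher), beside 69.7% of all genes, 26.7% lower and 43.0% higher, so the count lay below the background. Mrc2 and Clec4g passed the filter only through the medullary FACS arrays, where they were high. The unadjusted p of Mrc2 and the place of both among the higher genes are therefore no separate support. In LCM, 0 of 9 were called, beside 0.175% of 27377 genes tested, and 3 had an unadjusted limma p under 0.05 (Cd209b and Mrc1 lower, Clec14a higher), beside 11.7% of all genes, 4.81% lower and 6.89% higher. The LCM groups overlapped for all 9, and 3.09% of all genes did not overlap. The median difference of the genes tested, medullary minus subcapsular, was 0.61 in FACS, where that of all genes was 0.74, and −1.6 in LCM, where that of all genes was 0.08. Over all genes, LCM gave 46 called higher and 2 called lower, a split that became 10 and 5 after quantile normalization and 11 and 5 with the deposited log2 table.

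**Figure D2:**
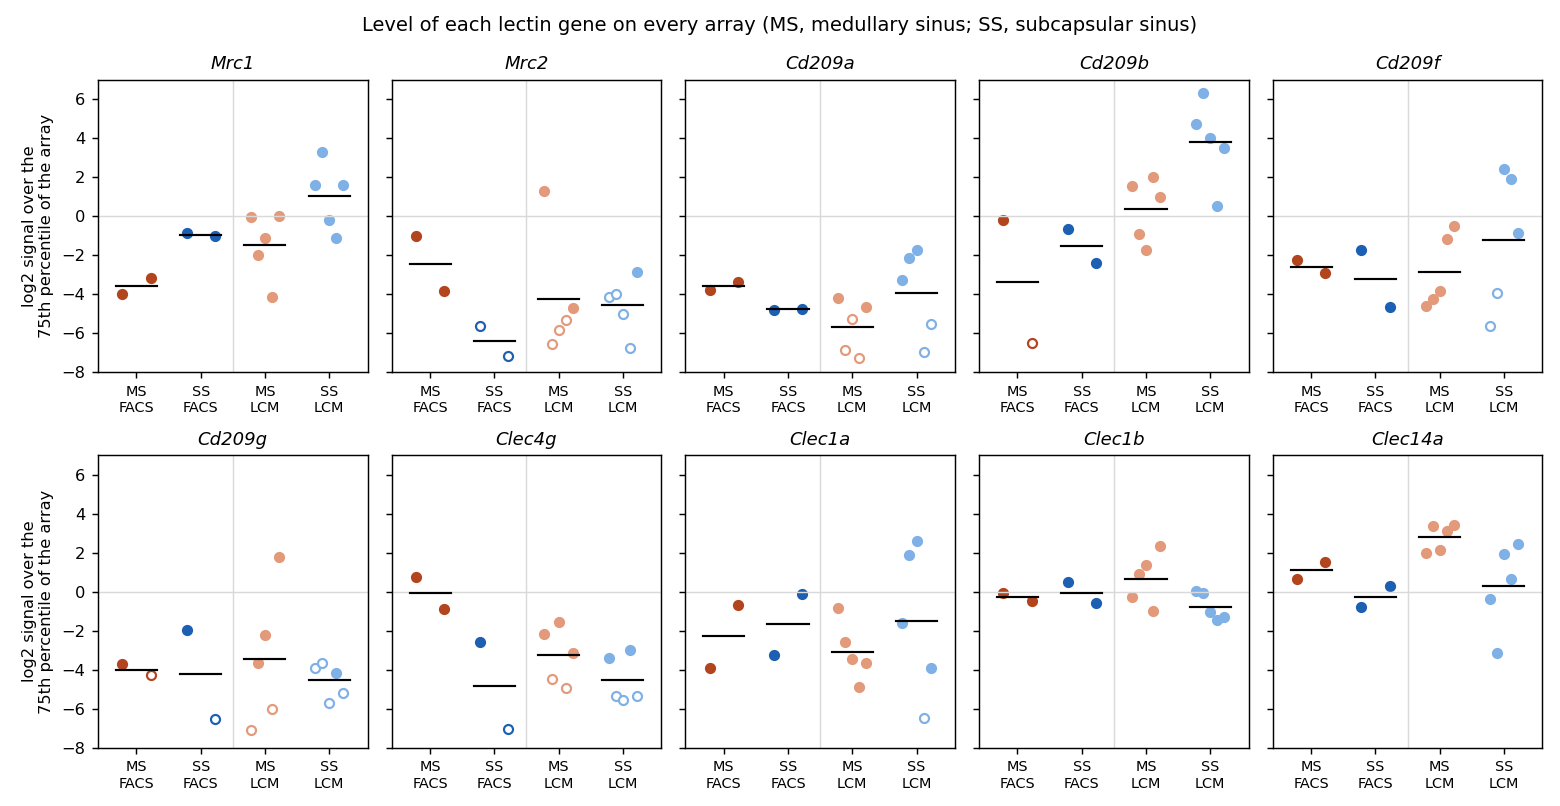
Level of each of the 10 genes on every array, as log2 signal over the 75th percentile (vertical axis), for medullary (MS) and subcapsular (SS) samples of both isolations. Each point is an array, filled where the probe was well above background and open where it was not, and the line is the group mean. In LCM, Cd209b averaged 0.37 in medullary and 3.81 in subcapsular samples, and Clec14a 2.81 and 0.30 in the same order.

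**Figure D3:**
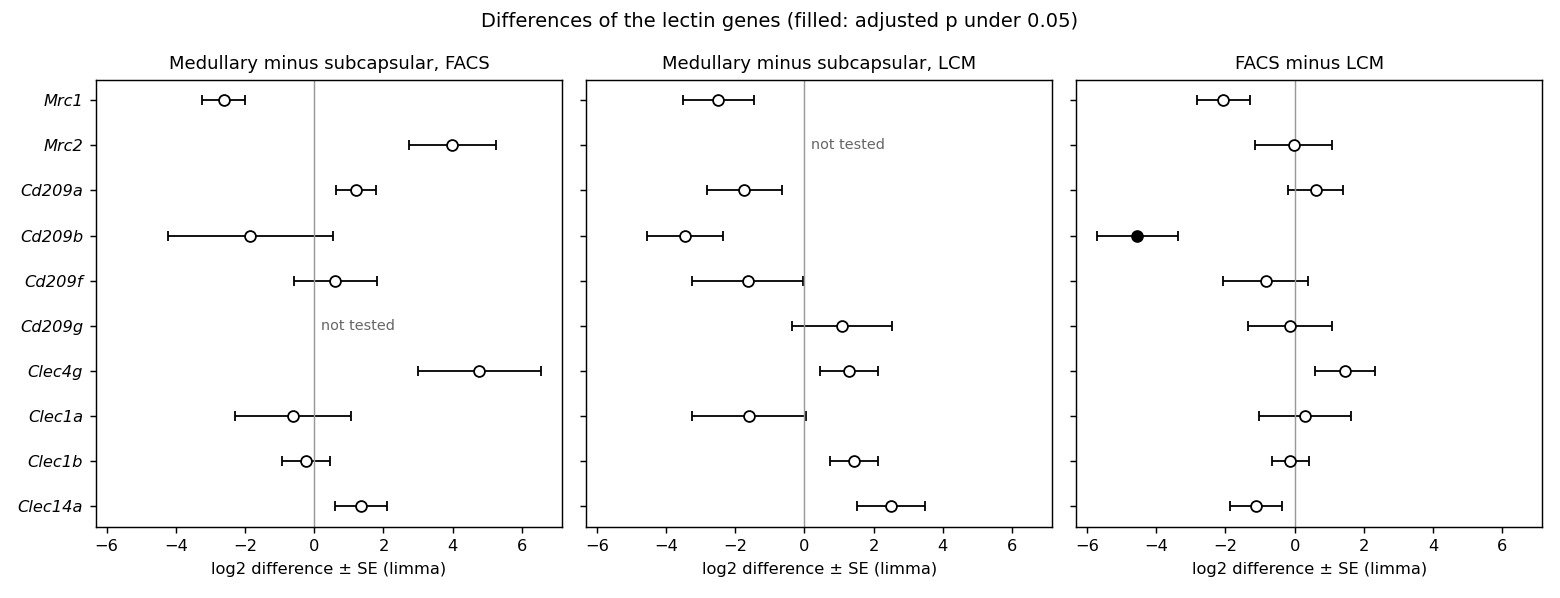
Log2 differences with standard errors from limma (horizontal axis) for each gene: medullary minus subcapsular in FACS, the same in LCM, and FACS minus LCM. Only Cd209b in the third panel (−4.54) has an adjusted p under 0.05. Mrc1 lies below 0 in all 3 panels.

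The mannose receptor family was represented by Mrc1 and Mrc2. Mrc1 encodes the mannose receptor of macrophages and of lymphatic and sinusoidal endothelium, which takes up mannosylated glycoproteins. In FACS its level was −4.0 and −3.16 in the medullary samples, against −0.89 and −1.03 in the subcapsular samples. The LCM levels were −0.05, −1.98, −1.14, −4.14 and 0.03 in the medullary samples 1 to 5, against 1.60, 3.29, −0.21, −1.10 and 1.61 in the subcapsular samples 1 to 5. Both FACS medullary samples thus lay below both subcapsular ones, and in LCM the groups overlapped, with medullary replicate 4 lowest and subcapsular replicate 2 highest. The medullary minus subcapsular difference was −2.62 ± 0.63 in FACS (SE, n = 2 per sinus, limma adjusted p = 0.108) and −2.49 ± 1.02 in LCM (SE, n = 5 per sinus, limma adjusted p = 0.388), corresponding to levels 6.14-fold and 5.63-fold lower in the medullary sinus. With slide as a block, or on slide 1 alone, the LCM difference was −2.09. The difference between these 2 values was itself tested as the interaction of sinus and isolation, and came to −0.13 ± 1.51 (limma adjusted p = 0.969). The macrophage list moved the same way in LCM, where all 13 of its tested members had negative differences with none called and a median of −1.57. Its part in the Mrc1 difference was not tested, and in bulk samples fewer cells of a type and less RNA per cell cannot be told apart.

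Mrc2 encodes Endo180, a relative of Mrc1 that takes up collagen, best known from fibroblasts and other mesenchymal cells. In FACS it was above background on both medullary arrays, at −1.03 and −3.85, and on neither subcapsular array, at −5.66 and −7.19. By an approximate lower bound, its level was 7.04-fold higher in the medullary FACS samples (fitted difference 3.99 ± 1.26, SE, n = 2 per sinus, limma adjusted p = 0.14). The bound depended on the array left out: it was 2.65-fold without medullary replicate 6 and 18.7-fold without replicate 7, and the fitted difference ranged from 2.58 to 5.40 without 1 array and was 1.44 with normexp background correction. Such a lower bound divides the mean of the brighter group by a floor of the dimmer group. On each array the floor is the dimmest probe still well above background, or the signal itself where that is higher. It is not a strict detection limit, because a probe above it can still be below background. Clec4g in medullary LCM replicate 2 is an example, at −4.46 with the dimmest detected probe at −4.64. The mean of the brighter group can also include arrays below background. In LCM the brightest probe of Mrc2 exceeded background on 2 of 5 medullary arrays, replicates 1 and 5 at 1.28 and −4.72, and on 1 of 5 subcapsular arrays, replicate 5 at −2.86. It was therefore not tested in LCM. The other probes of Mrc2 were above background on 1 array, medullary FACS replicate 6, and on no array. Of the fibroblast markers, Pdgfra and Pdgfrb exceeded background on 1 of 2 medullary FACS arrays and on no subcapsular one. Of the 5 fibroblast markers tested in FACS, 2 had positive and 3 negative differences, and Col3a1, a collagen gene and the one with the lowest p, averaged −2.58 in medullary and 1.60 in subcapsular samples (difference −4.18, limma adjusted p = 0.0677). Their part in the Mrc2 values was not tested, and the summed signal of the 8 markers was 3.93 and 26.1 in medullary and 22.6 and 26.5 in subcapsular FACS samples.

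Cd209b had the largest LCM difference of the lectin genes by their brightest probes and was the only one called between the isolations. It encodes SIGN-R1, the mouse DC-SIGN homologue of marginal zone macrophages in the spleen and of medullary macrophages in lymph nodes, which captures bacterial polysaccharides. In FACS its level was −0.22 and −6.53 in the medullary samples, the second of them below background, against −0.66 and −2.39 in the subcapsular samples. In LCM it was 1.54, −0.91, −1.73, 2.00 and 0.96 in the medullary samples 1 to 5, against 4.73, 6.31, 4.00, 0.50 and 3.50 in the subcapsular samples 1 to 5. In LCM only subcapsular replicate 4 lay within the medullary range, and the other 4 subcapsular samples lay above every medullary one. The medullary minus subcapsular difference in LCM was −3.44 ± 1.1 (SE, n = 5 per sinus), a level 10.8-fold lower in the medullary sinus (limma adjusted p = 0.295). It was −4.18 with slide as a block or on slide 1 alone, and −2.93 blocked by slide row, with limma adjusted p from 0.259 to 0.568. In FACS the difference was −1.85 ± 2.39 (SE, n = 2 per sinus, limma adjusted p = 0.586), and without medullary FACS replicate 7 it turned to 1.31. The interaction of sinus and isolation was 1.59 ± 2.32 (limma adjusted p = 0.714).

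Averaged over both sinuses, Cd209b lay at −2.45 in FACS and at 2.09 in LCM, 23.3-fold lower in FACS (difference −4.54 ± 1.16, SE, 4 against 10 arrays, limma adjusted p = 0.0481). It was 1 of 10 lectin genes called between the isolations, where 3.86% of 29686 genes tested were called and 2.04% were called lower in FACS. Over all genes 542 were called higher and 605 lower in FACS, and 803 and 559 when the percentile came from always-detected probes, those above background on all 14 arrays. The ranges of the isolations overlapped, because medullary FACS replicate 6 (−0.22) and subcapsular FACS replicate 6 (−0.66) lay above medullary LCM replicates 2 and 3 (−0.91 and −1.73). The call was lost when 1 array was left out in 11 of 14 cases (limma adjusted p up to 0.198) and within slide 2, where the difference was −3.93 (limma adjusted p = 0.46). Without medullary FACS replicate 7 the difference was −2.96 (limma adjusted p = 0.117). Of the macrophage markers Lyz2 (−3.33, limma adjusted p = 0.00516), C1qa (−4.67, 0.0433) and Timd4 (−5.27, 9.2e-05) were also called lower in FACS, with negative differences for 13 of 15 markers and none called higher. The lineage cocktail of the sort held anti-CD11b, with its gate not given, and Itgam, the gene of CD11b, differed by −0.08 (limma adjusted p = 0.956). The part of macrophages in the Cd209b difference was not tested.

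**Figure D4:**
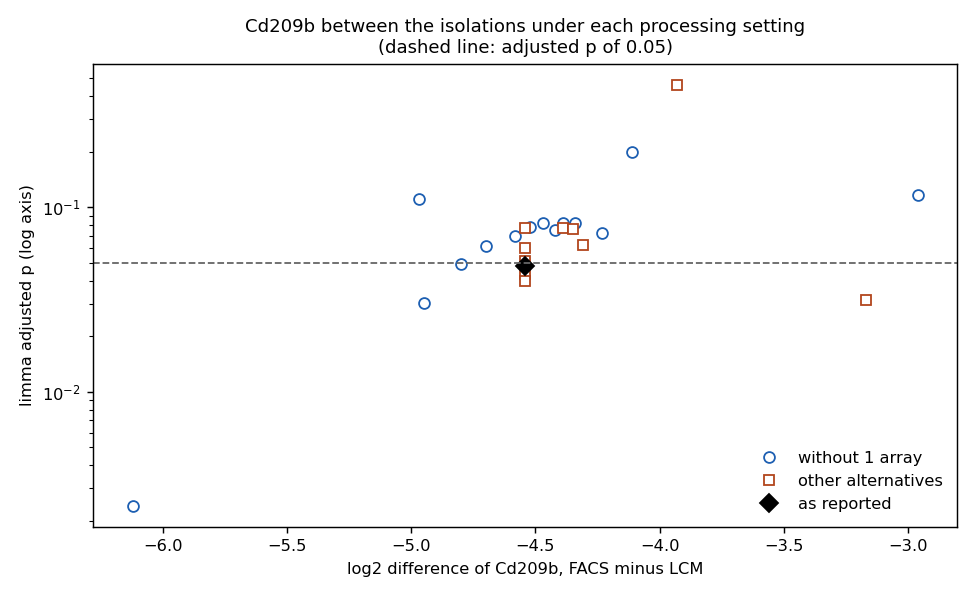
Cd209b, FACS minus LCM: log2 difference (horizontal axis) against limma adjusted p (vertical log axis) as reported (diamond), without 1 array (circles) and under other alternatives (squares). The difference stayed between −6.12 and −2.96, while the adjusted p ran from 0.00241 to 0.46, on both sides of the dashed line at 0.05.

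None of the remaining Cd209 genes was called. Cd209a, the homologue found on dendritic cells, was above background on 9 arrays. In FACS it ranged from −3.79 to −3.38 in medullary and from −4.80 to −4.78 in subcapsular samples, without overlap, a difference of 1.2 ± 0.57 (SE, n = 2 per sinus, limma adjusted p = 0.213). That difference was 0.29 after quantile normalization and with the deposited log2 table, 0.79 with normexp and 0.21 with the mean of its probes. In LCM it ranged from −7.29 to −4.21 in medullary and from −6.97 to −1.73 in subcapsular samples, with 2 and 3 of 5 arrays above background and a difference of −1.74 ± 1.09 (limma adjusted p = 0.563). The differences thus had opposite signs in the isolations, and the interaction was 2.95 ± 1.6 (limma adjusted p = 0.3). A second probe of Cd209a was above background on only 3 arrays. The dendritic cell markers Itgax and Ccr7, 2 of 7 tested, were called higher in FACS than in LCM, beside 3.86% of all genes called in either direction. Their fitted differences were 2.67 and 2.82 (limma adjusted p = 0.0134 and 0.0412). Itgax, the gene of the integrin CD11c, was above background on neither medullary FACS array and on no LCM array.

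Cd209f and Cd209g are less studied mouse genes of the same cluster. Cd209f was above background on 12 arrays, and 2 subcapsular LCM samples were below background, replicates 1 and 2. Its highest levels were 2.41 and 1.90, in subcapsular LCM replicates 3 and 4, and the medullary LCM samples ranged from −4.62 to −0.52. The difference was 0.61 ± 1.21 in FACS (SE, n = 2 per sinus, limma adjusted p = 0.721) and −1.64 ± 1.6 in LCM (SE, n = 5 per sinus, limma adjusted p = 0.741). Cd209g was above background on 6 arrays and stood out on 1 of them, medullary LCM replicate 5 at 1.79, while all other arrays lay between −7.10 and −1.97. Its LCM difference of 1.08 ± 1.45 (limma adjusted p = 0.812) turned to −0.23 without that replicate. It was not tested in FACS, where 1 of 2 arrays of each sinus was above background.

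Clec4g encodes LSECtin, a lectin of liver and lymph node sinusoidal endothelium that binds glycans of viruses and of activated T cells and lies beside the Cd209 genes. In FACS its level was 0.76 and −0.86 in the medullary samples, against −2.57 and −7.06 in the subcapsular samples, of which only the first was above background. In LCM its probe exceeded background on 3 of 5 medullary arrays, at −2.15, −1.54 and −3.16 in replicates 1, 3 and 5, and on 2 of 5 subcapsular arrays, at −3.42 and −2.99 in replicates 1 and 4. The FACS groups did not overlap and the LCM groups did. The difference was 4.77 ± 1.78 in FACS (SE, n = 2 per sinus), higher in the medullary sinus, and did not pass the test (limma adjusted p = 0.163). It was 2.52 without subcapsular replicate 7, the array below background, and 7.01 without subcapsular replicate 6. With normexp it was 2.38. It was called when all 14 arrays entered 1 fit with array weights by isolation (limma adjusted p = 0.0322), a fit that called 4506 genes in this comparison. In LCM the difference was 1.29 ± 0.83 (SE, n = 5 per sinus, limma adjusted p = 0.576), or 0.12 with normexp background correction. The interaction was 3.48 ± 1.72 (limma adjusted p = 0.259). Lag3, a T cell protein reported to bind LSECtin, differed by 2.00 in FACS and by 3.37 in LCM, with limma adjusted p of 0.434 and 0.447.

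Clec1a encodes a C-type lectin-like receptor of endothelial and myeloid cells that recognises a fungal melanin. It was above background on 13 arrays, all but subcapsular LCM replicate 4. Its level was −3.89 and −0.69 in medullary FACS and −3.23 and −0.11 in subcapsular FACS samples. In LCM it ranged from −4.87 to −0.85 in medullary and from −6.45 to 2.63 in subcapsular samples. The range within each group was wider than the difference between the sinuses, which was −0.62 ± 1.68 in FACS (SE, n = 2 per sinus, limma adjusted p = 0.794) and −1.60 ± 1.64 in LCM (SE, n = 5 per sinus, limma adjusted p = 0.751).

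Clec1b encodes CLEC-2, the receptor for podoplanin that is best known from platelets and is also found on some myeloid cells. With its brightest probe, the level was −0.07 and −0.48 in medullary FACS and 0.49 and −0.56 in subcapsular FACS samples. In LCM it was −0.24, 0.91, 1.36, −1.0 and 2.37 in the medullary samples 1 to 5, against 0.03, −0.04, −1.05, −1.47 and −1.27 in the subcapsular samples 1 to 5. Medullary LCM replicates 2, 3 and 5 lay above every subcapsular sample, and replicates 1 and 4 within their range. The difference was −0.24 ± 0.68 in FACS (SE, n = 2 per sinus, limma adjusted p = 0.807) and 1.44 ± 0.7 in LCM (SE, n = 5 per sinus, limma adjusted p = 0.458), with an interaction of −1.67 ± 1.07 (limma adjusted p = 0.371).

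The other probes of Clec1b, both further along the gene than the brightest one, separated the LCM groups more widely. The second probe was above background on all 5 medullary LCM arrays, from −3.69 to 0.35, and on 1 of 5 subcapsular LCM arrays, replicate 2 at 0.88. Its difference was 3.67 ± 1.57 in LCM (SE, n = 5 per sinus, limma adjusted p = 0.413 over all probes), and in FACS 5.13 ± 1.69 (SE, n = 2 per sinus, limma adjusted p = 0.147). The third probe was above background on 4 of 5 medullary LCM arrays, from −1.12 to 0.96, with replicate 4 at −7.17, and on 0 of 5 subcapsular LCM arrays. By an approximate lower bound it was 8.39-fold higher in the medullary LCM samples (fitted difference 4.82 ± 1.38, limma adjusted p = 0.251). That bound was 22.7-fold without medullary replicate 4 and 5.55-fold without replicate 1. In FACS the third probe was above background on 1 of 2 arrays of each sinus, replicate 6 at −2.31 in medullary and 0.24 in subcapsular samples, so it did not follow the second probe there.

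Genes known from platelets and the ligand of CLEC-2 were set beside Clec1b. Of 7 platelet markers, 4 were tested in LCM and all had positive differences with none called. Pf4, a platelet chemokine, exceeded background on 4 of 5 medullary LCM arrays and 0 of 5 subcapsular ones (fitted difference 4.82, limma adjusted p = 0.212). The summed signal of the platelet list was 8.17 and 9.88 in medullary FACS, 2.07 and 9.51 in subcapsular FACS, 1.9 to 29.4 in medullary LCM and 1.53 to 8.03 in subcapsular LCM samples. The part of platelets in the Clec1b values was not tested. Pdpn, the podoplanin gene, whose protein was an antigen of the sort, exceeded background on 2 of 2 medullary FACS arrays and 1 of 2 subcapsular ones (4.33, limma adjusted p = 0.0816), and on 4 of 5 medullary LCM arrays and 1 of 5 subcapsular ones (2.31, limma adjusted p = 0.607).

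Clec14a encodes an endothelial member of the thrombomodulin group of C-type lectins that binds the matrix protein multimerin 2. With its brightest probe, the level was 0.66 and 1.55 in medullary FACS samples, against −0.80 and 0.31 in subcapsular FACS samples. The LCM levels were 1.97, 3.39, 2.13, 3.12 and 3.41 in the medullary samples 1 to 5, against −0.39, −3.16, 1.94, 0.68 and 2.43 in the subcapsular samples 1 to 5. Both FACS medullary samples lay above both subcapsular ones, and in LCM only subcapsular replicate 5 reached the medullary range. The difference was 1.35 ± 0.75 in FACS (SE, n = 2 per sinus, limma adjusted p = 0.26) and 2.51 ± 0.98 in LCM (SE, n = 5 per sinus, limma adjusted p = 0.372), a level 5.69-fold higher in the medullary LCM samples. With slide as a block, or on slide 1 alone, the LCM difference was 2.20. The interaction was −1.16 ± 1.49 (limma adjusted p = 0.669). Mmrn2, the gene of multimerin 2, differed by 2.38 in FACS and by 0.28 in LCM (limma adjusted p = 0.129 and 0.948).

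The second probe of Clec14a, further toward the 3′ end, ran the other way in LCM and the same way in FACS. It exceeded background on 1 of 2 medullary FACS arrays and 0 of 2 subcapsular ones. Its FACS signal was higher in medullary samples by an approximate lower bound of 1.43-fold, which was lost without medullary replicate 6, the array above background. It exceeded background on 0 of 5 medullary LCM arrays and 3 of 5 subcapsular ones, replicates 3, 4 and 5 at −0.89, −2.91 and −3.54. Its LCM signal was lower in medullary samples by an approximate lower bound of 2.04-fold (fitted difference −3.03 ± 0.98, SE, n = 5 per sinus, limma adjusted p = 0.303 over all probes). That bound was 1.21-fold without subcapsular replicate 3 and 3.1-fold without replicate 1. The mean of both probes gave an LCM difference of −0.26 (limma adjusted p = 0.94), so the direction of Clec14a in LCM rests on which probe is read. Blood endothelial markers moved with the brightest probe in LCM, where all 10 had positive differences. Fut7 (6.76, limma adjusted p = 0.00386), Ackr1 (5.44, 0.0163) and Chst4 (4.47, 0.0472), genes of high endothelial venules, were called higher in medullary LCM samples, beside 0.175% of all genes called. In FACS 6 differences were positive and 4 negative, with none called. All 10 interactions were negative, and those of Ackr1 (−6.92, limma adjusted p = 0.0177) and Plvap (−5.41, 0.0248) were called. The summed signal of the 10 markers was 6.05 and 11.0 in medullary FACS, 9.57 and 25.6 in subcapsular FACS, 44.9 to 135 in medullary LCM and 12.2 to 37.0 in subcapsular LCM samples. The part of these markers in the Clec14a difference was not tested.

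**Figure D5:**
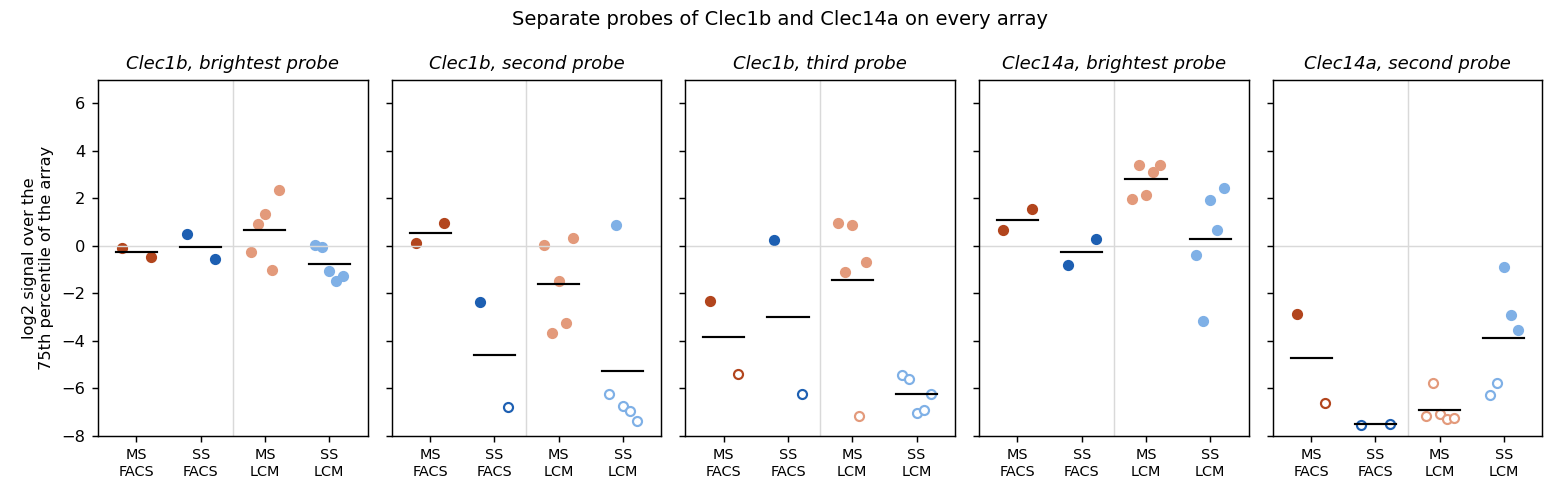
Log2 signal over the 75th percentile (vertical axis) on every array for the 3 probes of Clec1b and the 2 probes of Clec14a, drawn as in the plot of all levels. In LCM the third Clec1b probe was detected above background on 4 of 5 medullary and none of the subcapsular arrays, and the second Clec14a probe on none of the medullary and 3 of 5 subcapsular arrays.

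Besides Cd209b, no lectin gene was called between the isolations. Mrc1 averaged −2.27 in FACS and −0.21 in LCM, a difference of −2.06 ± 0.76 (SE, 4 against 10 arrays, limma adjusted p = 0.181). Within slide 2, where the LCM arrays were all medullary, the difference was only −0.21 (limma adjusted p = 0.967). Under none of the alternatives run did the limma adjusted p of Mrc1 fall below 0.0813. The other 8 differed by between −1.12 and 1.46, with Clec14a and Clec4g at the ends. Mrc1 and Cd209b made 2 of 10 with an unadjusted limma p under 0.05, beside 16.1% of all genes. In the interaction of sinus and isolation, 0 of 10 were called, beside 1.3% of 29686 genes, and 0 had an unadjusted limma p under 0.05, beside 21.3% of all genes. The interaction median was 1.28 for the 10 genes and 0.52 for all genes. Over all genes the interaction gave 166 called higher and 220 lower, 390 and 304 with normexp background correction, and 110 and 360 with the percentile of always-detected probes.

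Of 31 other C-type lectins, 17 entered the LCM comparison, 19 the FACS comparison and 21 the comparison of the isolations, and none was called between the sinuses. Fcer2a, the low-affinity IgE receptor of B cells, fell by 2.77 in FACS relative to LCM (limma adjusted p = 0.00461), and Clec2d, a ligand of natural killer cell receptors, fell by 1.62 (limma adjusted p = 0.0474). These were the 2 of 21 called lower, beside 2.04% of all genes. In the mannose receptor and thrombomodulin groups, Cd248, the stromal lectin endosialin, differed by 2.41 in FACS and by 0.23 in LCM (limma adjusted p = 0.122 and 0.898), while Ly75 and Cd302 were above background on 1 array and on none. Of the genes nearest to the Cd209 members, Cd209d, above background on all arrays, differed by −0.03 in FACS and by 0.03 in LCM (limma adjusted p = 0.983 and 0.993). In the Dectin-2 cluster, Clec4a1 and Clec5a were above background on both medullary and neither subcapsular FACS array, with fitted differences of 4.52 and 5.02 (limma adjusted p = 0.0708 and 0.0836). Both genes entered that test only through the medullary arrays.

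All 12 ligands and signalling partners of the lectin genes were tested between the sinuses. In FACS 0 were called, beside 0.0% of all genes tested, and in LCM 1, beside 0.175%. Card9, the adaptor that carries signals from Syk-coupled lectin receptors, rose by 3.19 in the medullary LCM samples, at 1.54 against −1.65 on average (limma adjusted p = 0.0368). In FACS it averaged 1.07 in medullary and 0.31 in subcapsular samples (difference 0.76, limma adjusted p = 0.631), and the interaction of −2.43 did not pass (limma adjusted p = 0.197). The call of Card9 was not followed under the alternatives. Among these, the 48 LCM calls over all genes became 8 with normexp and 225 with the percentile of always-detected probes. Syk, the kinase that CLEC-2 engages, differed by −0.31 in FACS and by 0.18 in LCM (limma adjusted p = 0.735 and 0.951). Plcg2, a phospholipase downstream of Syk that B cells also use, differed by −3.91 in FACS and by −1.87 in LCM (limma adjusted p = 0.0708 and 0.323). The summed signal of 6 lymphocyte markers had a median of 25.8 in medullary and 87.2 in subcapsular FACS samples, and of 37.4 in medullary and 109 in subcapsular LCM samples. The part of lymphocytes in these values was not tested. Between the sinuses no lymphatic, macrophage, dendritic, platelet, fibroblast or lymphocyte marker was called. Between the isolations, averaged over both sinuses, Pecam1 and Cdh5 of the lymphatic list and Plvap of the blood endothelial list were called lower in FACS. So were Pdgfra, Col1a2, Col3a1 and Dcn of the fibroblast list, with limma adjusted p of at most 0.0314 for all of these. No platelet or lymphocyte marker was called. Pecam1 averaged −3.6 in medullary and 4.62 in subcapsular FACS, against 4.82 and 4.18 in LCM in the same order. Plvap averaged −2.22 and 2.8 in FACS, against 4.6 and 4.21 in LCM. The interactions of Pecam1 (−8.86, limma adjusted p = 0.012) and Plvap (−5.41, 0.0248) were called, and those of the other markers named here were not.

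The genes whose LCM profile was most like that of a lectin gene were found by Pearson's r over the 10 LCM arrays, among 14573 genes above background on all of them. These arrays share 2 slides and the sinus labels, so r is given as a description. Mrc1 was most like Rab9 (0.941), Gbp3 (0.928) and Azin1 (0.918). Cd209b was most like Slfn10-ps (0.986), Dnajc21 (0.95) and Oat (0.947). Clec1b was most like Olfr1330 (0.966), H2afv (0.964) and Bcl7b (0.953), and Clec14a like Zer1 and Arhgap31 (0.899 each) and Tcf7 (0.889).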

How the data were processed

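Per the labels, SuperAmp amplification and Cy3 labelling preceded hybridisation of 14 samples to Agilent arrays of 1 colour. The scanner files hold spot intensity values made with Agilent Feature Extraction 10.7.3.1, with background and spatial trends removed and no scaling between arrays, per the file headers. A second deposited table, of log2 values with a median of 5.43 on every array, served as an alternative, and how the authors made it is not given in the sources used here. From the log2 of each intensity the array's 75th percentile, taken over non-control probes, was subtracted. Spots marked as outliers were dropped, and the rest of a probe's spots averaged. No spot of the 10 genes was an outlier or saturated. Each gene was read from its probe with the highest mean over 14 arrays.

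A gene was tested in FACS if above background on both arrays of a sinus, in LCM if on at least 3 of 5, and over all arrays if either held. Differences were fitted with limma 3.58.1 (lmFit, eBayes; R 4.3.3, with the data.table package at version 1.17.8), separately for FACS and LCM, and over 14 arrays with 4 group means and array weights by isolation for FACS minus LCM and the interaction. Adjusted p-values are Benjamini-Hochberg over all genes tested (over all probes for separate probes), called under 0.05. Every one of the 10 genes is named. From each list of other genes, those called, and otherwise up to 3 with the lowest p, could be named, and single genes beyond these were named for their link to a lectin gene after their values were seen. The 3 most similar genes were named for the lectin genes above background on all LCM arrays, leaving out names that are only identifiers. The 10 genes and the lists were chosen with earlier results of these data known. Ccl21a was not matched by name, and Adgre1, Ackr1 and Ackr4 were matched through older names.

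The fits were tested on simulated data with planted changes. Of planted log2 changes of 4 and 8, the LCM fit called 47% and 83%. The FACS fit, with 2 arrays per sinus, called none of either size. The largest LCM difference of a lectin gene by its brightest probe was −3.44 (Cd209b). The absence of lectin calls in LCM therefore does not show that the sinuses were alike. Samples of the same replicate number showed no pairing (correlations of deviations from −0.02 to 0.005), which does not exclude a shared animal or pool. Figures used matplotlib 3.10.9 in Python 3.11.15 with pandas 2.3.3.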

Additional observations from a re-analysis of the deposited data

Results flagged for a closer look

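Within the groups of 5 LCM arrays, the highest or lowest value was compared with the nearest other one, by Dixon's criterion, for the brightest probe of each gene and for other probes above background on at least 1 array of the group. Of 25 groups checked, 4 held a value that stood apart. This count cannot be set against a chance rate, because other probes entered only if above background on at least 1 array. For the second probes of Clec1b and Cd209a in subcapsular LCM, the value that stood apart was the only 1 above background. Mrc2 in medullary LCM replicate 1 lay at 1.28, with the next value at −4.72. The second probe of Clec1b in subcapsular LCM replicate 2 lay at 0.88, with the next at −6.25. The second probe of Cd209a in that same replicate lay at 0.29, with the next at −5.28. That array had the lowest share of probes above background, 50.8%. The third probe of Clec1b in medullary LCM replicate 4 lay at −7.17, below background, with the next at −1.12.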

How the results depend on the processing

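The array number limits precision, and 7 of 10 genes were below background on some arrays. No lectin gene was called between the sinuses under any alternative run except Clec4g in FACS in the fit of all 14 arrays (4.77, limma adjusted p = 0.0322). The Cd209b difference between the isolations lost its call under quantile normalization (limma adjusted p = 0.0771), the percentile of always-detected probes, those above background on all 14 arrays (0.062), the deposited log2 table (0.0758), no filter (0.0604), the mean of a gene's probes (0.0508), no array weights (0.0766), within slide 2 (0.46) and without any 1 of 11 arrays. It kept its call with normexp (−3.17, 0.0314), the stricter filter (0.0435) and trend and robust eBayes (0.0396), always with the same sign. In LCM the median difference of all genes was 0.08, and 0.81 with the percentile of always-detected probes. Unless said, the cause of a change was not tested.

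Directions turned under these alternatives, with no call on either side. Medullary minus subcapsular, the mean of a gene's probes gave −0.26 for Clec14a in LCM and 1.34 for Clec1b in FACS, and Cd209f in FACS was −0.18 after quantile normalization and −0.16 with the deposited table. For FACS minus LCM, normexp gave −0.15 for Cd209a and −0.13 for Clec1a, quantile normalization −0.15 and the deposited table −0.16 for Clec1a, and the mean of probes 0.58 for Clec1b and 0.19 for Mrc2. The percentile of always-detected probes gave 0.2 for Mrc2, 0.09 for Cd209g and 0.12 for Clec1b, and slide 2 alone 0.6 for Mrc2. In the interaction, normexp gave 0.72 for Mrc1 and the mean of probes 2.33 for Clec14a. Leaving out 1 array, values that crossed 0 ranged as follows. In LCM Cd209g ranged from −0.23 to 2.0. In FACS Cd209b ranged from −5.01 to 1.31, Cd209f from −0.87 to 2.09, Clec1a from −2.22 to 0.97 and Clec1b from −0.76 to 0.29. For FACS minus LCM, Mrc2 ranged from −0.74 to 0.67, Cd209g from −1.27 to 1.0, Clec1a from −0.49 to 1.1 and Clec1b from −0.38 to 0.15. In the interaction, Mrc1 ranged from −0.8 to 0.41, Cd209b from −1.57 to 4.74, Cd209g from −3.12 to 1.42 and Clec1a from −0.62 to 2.58.

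Counts of all genes called moved more. For LCM, 48 became 8 with normexp, 15 with quantile normalization, 225 with the other percentile, 16 with the deposited table, 104 with the stricter filter, 127 with slide as a block, 212 on slide 1 alone and 14 with row as a block, and ranged from 17 to 96 without 1 array. The replicate block, with numbers that the labels do not tie to animals, gave 0 in LCM and 0 in FACS. For FACS, 0 (8830 at an unadjusted limma p under 0.05) became 1813 with trend and robust eBayes and 4506 in the fit of all 14 arrays, and stayed 0 without 1 array. For FACS minus LCM, 1147 became 747 without array weights and 86 within slide 2, where fewer arrays entered, and ranged from 593 to 1565 without 1 array. For the interaction, 386 became 694 with normexp, 1155 with quantile normalization, 1143 with the deposited table and 109 without array weights, and ranged from 11 to 1105 without 1 array.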
